A study of Homo sapiens with 12 samples.

Results

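Tight junctions seal the space between neighbouring epithelial cells. Claudins span the membrane of both cells and pair across the gap, where barrier-forming claudins tighten the seal and pore-forming claudins let chosen ions or water through. Occludin lies in the same strands, and the zonula occludens (ZO) proteins bind claudin tails from the inside and tie them to actin. In the stomach, a splice form of CLDN18 is the typical claudin of the surface and gland epithelium, and it is known as an antibody target in gastric cancer.

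The members described here were the 9 rows CLDN1, CLDN2, CLDN3, CLDN4, CLDN7, CLDN12, CLDN18, OCLN and TJP1 of a table with 34595 genes, chosen by their gene family and not by their values. Expression was measured on Illumina HT-12 v3 BeadChips in 3 established human gastric cancer cell lines, KATO-III, SNU-216 and SNU-601, grown in RPMI1640 with calf serum and given no other treatment. Each line was sorted by an antibody against CD133, a surface glycoprotein used as a stem cell marker and encoded by PROM1, into the brightest 10% of cells (CD133+) and the dimmest 6% (CD133-), with 2 arrays for each of the 6 populations. The array labels name SNU-216, and the series description names SNU201 in its place. Both gates are tails of the stain within 1 cultured line, so every contrast compares bright with dim cells of the same culture type and not 2 cell types.

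Values are background-subtracted intensities on a linear scale. A floor of 32.7 marks how far the subtraction scatters around 0, and values under it were treated as below background and have no order. An array had 16320 to 16474 genes above it, and the 2 arrays of a population correlated at 0.993 to 0.995 across genes. PROM1 rose in CD133+ cells by 1.10 on the log2 scale in KATO-III, 2.02 in SNU-216 and 1.86 in SNU-601. The 5 epithelial markers (EPCAM, KRT8, KRT18, KRT19 and CDH1) were above the floor on all 12 arrays, with a summed intensity of 46394 to 57671. Of these, CDH1 (E-cadherin) fell in KATO-III (-0.70) and SNU-601 (-0.25) and rose in SNU-216 (0.30), and its part in the results was not tested. Another of the 5 was called lower in SNU-216, where their changes ran from -0.39 to 0.30 and 28.6% of all genes tested were called. Of 5 leukocyte markers, PTPRC and CD3E lay below the floor on every array, while CD68 was measured in all populations and CD14 mainly in KATO-III. The summed leukocyte markers were lower in the CD133+ arrays of every line, at 884 to 921 against 1299 to 1343 in KATO-III, 206 to 218 against 424 to 469 in SNU-216 and 1148 to 1279 against 1612 to 1679 in SNU-601. Their part in the results below was not tested. Of 5 fibroblast markers, COL1A1 and, on 1 array, COL1A2 passed the floor. COL1A1 rose in KATO-III CD133+ cells (at least 1.80-fold, 51.4 and 67.1 against values below the floor, limma adjusted p = 0.00977), and its part was not tested either. None of 3 endothelial markers passed the floor.

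Promoter sequence is shown for the 3 members whose levels spread most over the populations, CLDN18, CLDN2 and CLDN3. The windows come from RefSeq on GRCh38.p14 and run from 250 bases before to 50 bases after the annotated gene start, written 5′ to 3′ on the strand of the gene. They lie at chr3:137998566-137998865 (plus strand) for CLDN18, chrX:106899914-106900213 (plus strand) for CLDN2 and chr7:73770221-73770520 (minus strand) for CLDN3. Capitals mark matches, on either strand, to CAGGTG (an E-box bound by SNAI and ZEB repressors), TTTATG (a CDX motif), AACCNGTT (a grainyhead-like motif) or GGGCGG (a GC box).
CLDN18 promoter: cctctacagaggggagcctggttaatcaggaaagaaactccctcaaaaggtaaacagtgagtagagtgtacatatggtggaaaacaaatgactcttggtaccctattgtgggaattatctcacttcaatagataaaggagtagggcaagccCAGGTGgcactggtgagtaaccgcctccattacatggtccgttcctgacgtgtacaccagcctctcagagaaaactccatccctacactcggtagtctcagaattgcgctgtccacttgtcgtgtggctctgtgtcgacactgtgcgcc
CLDN2 promoter: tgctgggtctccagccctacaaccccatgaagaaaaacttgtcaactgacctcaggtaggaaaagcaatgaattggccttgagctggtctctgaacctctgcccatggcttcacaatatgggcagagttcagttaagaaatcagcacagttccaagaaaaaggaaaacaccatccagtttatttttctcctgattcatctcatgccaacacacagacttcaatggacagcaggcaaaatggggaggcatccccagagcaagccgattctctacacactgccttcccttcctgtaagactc
CLDN3 promoter: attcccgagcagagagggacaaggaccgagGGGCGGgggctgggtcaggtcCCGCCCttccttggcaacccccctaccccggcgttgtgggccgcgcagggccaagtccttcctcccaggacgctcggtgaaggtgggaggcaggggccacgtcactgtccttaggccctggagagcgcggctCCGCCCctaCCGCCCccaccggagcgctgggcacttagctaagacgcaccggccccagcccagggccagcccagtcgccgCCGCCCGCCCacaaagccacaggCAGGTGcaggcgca
These 3 windows are of different kinds. The CLDN3 window is 72% G and C with 24 CpG dinucleotides, the CLDN18 window 49.3% with 8, and the CLDN2 window 47.3% with 1. Over 35116 RefSeq promoters the median was 58.7% and 14 CpG dinucleotides. CLDN18 holds 1 CAGGTG, at positions -99 to -94 from the start. CLDN3 holds 6 GC box matches, of which the last 2 overlap, and 1 CAGGTG that begins 37 bases after the start. CLDN2 holds none of the motifs. Among all 9 members, 4 held CAGGTG (20.6% of all promoters), 5 a GC box (45%), and 0 the CDX (10.6%) or grainyhead-like motif (1.73%). A match is a stretch of letters and not a shown binding site. RefSeq gives CLDN18 and CLDN2 further transcripts with other first exons. Each window covers the annotated gene start only, and whether this is the start of the stomach form of CLDN18 was not checked. The array rows do not tell the transcripts apart. CLDN3 and CLDN4 are neighbours on chromosome 7, with 0 protein-coding genes between them.

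The level of 6 of the 9 members differed between the lines (limma, moderated F-test on the mean of both fractions, Benjamini-Hochberg adjusted p under 0.05), where 72.3% of all 20147 genes tested did. Between each pair of lines 6 members differed, against 62% of all genes for KATO-III and SNU-216, 58.6% for KATO-III and SNU-601 and 56.5% for SNU-216 and SNU-601. CLDN18 was the most uneven. In SNU-601 its intensity was 6268 and 6803 on the CD133+ arrays and 7381 and 7394 on the CD133- arrays. In KATO-III it was 951 and 1003 in CD133+ cells and 1615 and 1741 in CD133- cells. On the 4 SNU-216 arrays it stayed between 1.49 and 20.7, below the floor. SNU-601 thus lay 5.43-fold above KATO-III (log2 difference of KATO-III minus SNU-601 -2.44, SE 0.0438, limma adjusted p = 1.71e-10). Against SNU-216 the level of CLDN18 was at least 39.2-fold higher in KATO-III and at least 212-fold higher in SNU-601. In RNA from sorted populations, fewer expressing cells and less RNA per cell cannot be told apart.

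CLDN2, which forms a pore for cations and water, followed the same order of lines. Its intensities were 2627 and 2740.0 in SNU-601 CD133+ cells, 1749 and 1961 in SNU-601 CD133- cells, 1025 and 1219 in KATO-III CD133+ cells and 551 and 627 in KATO-III CD133- cells. All 4 SNU-216 arrays lay below the floor, between -13.1 and 5.08. The level was at least 24.8-fold higher in KATO-III and at least 68.2-fold higher in SNU-601 than in SNU-216, and 2.75-fold lower in KATO-III than in SNU-601 (limma adjusted p = 1.45e-07). CLDN2 and CLDN18 passed the filter on dim genes through KATO-III and SNU-601 only, so their place among the 6 follows from that filter.

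**Figure D1:**
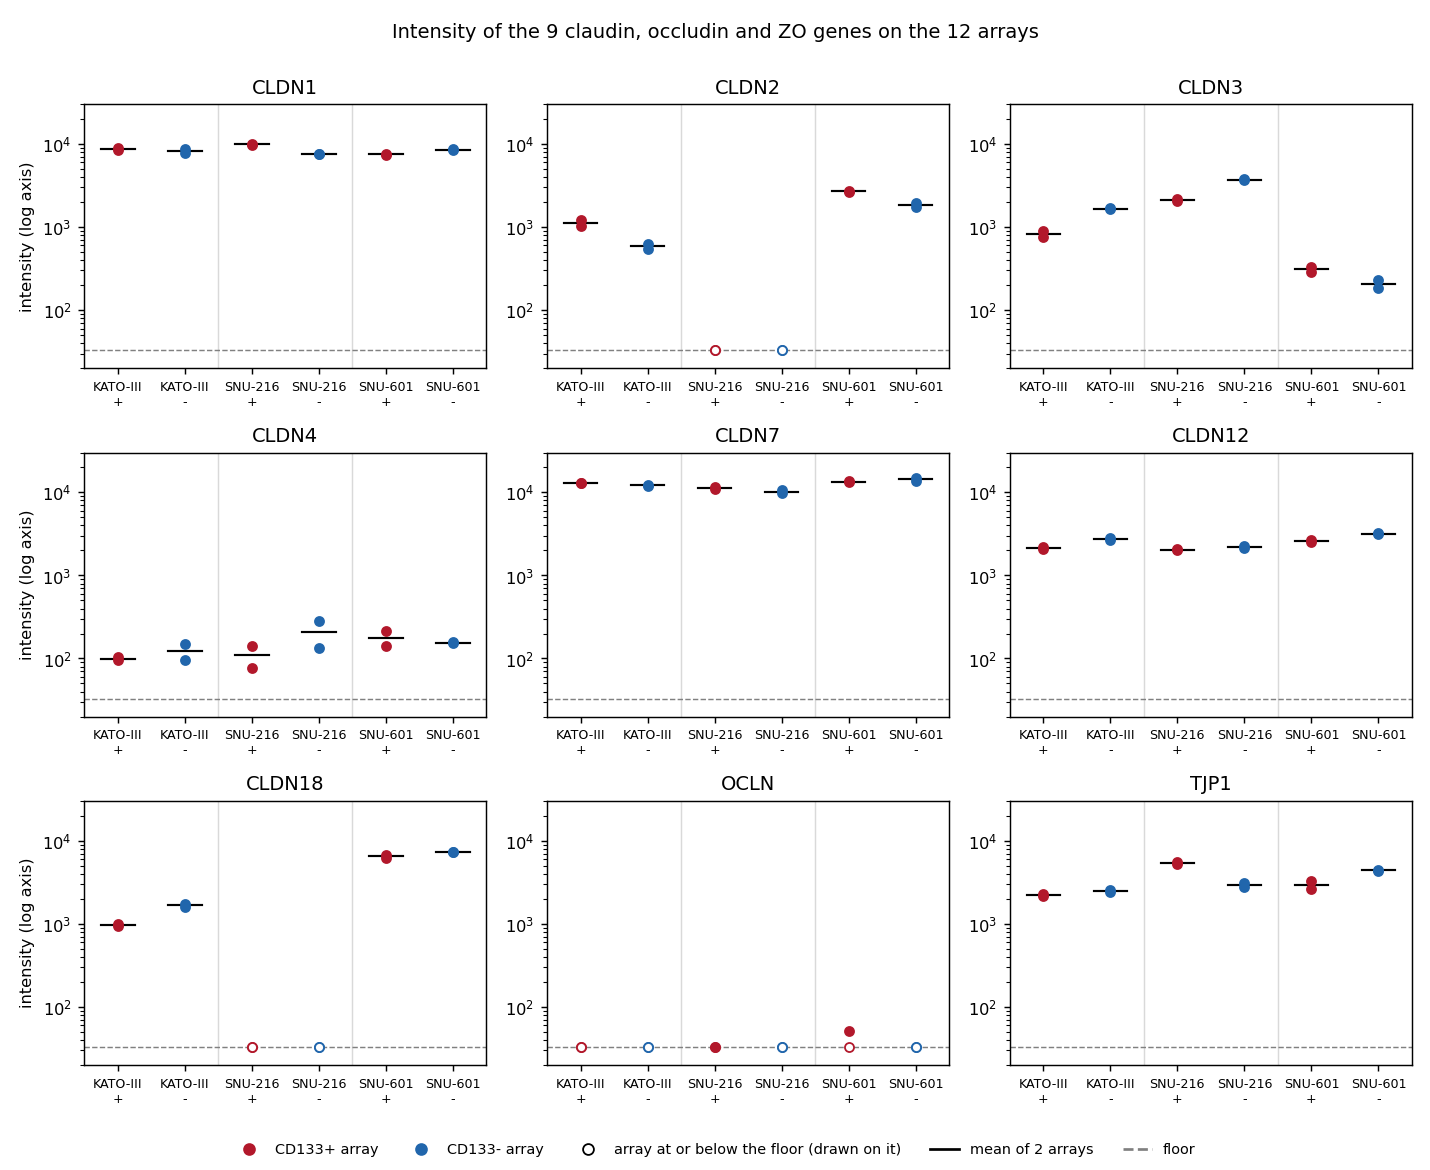
Intensity (log axis) of the 9 genes on each of the 12 arrays, by line and CD133 fraction, where points are arrays, bars are the mean of 2 arrays and the dashed line is the floor of 32.7. CLDN2 and CLDN18 lie below the floor in SNU-216 only, CLDN3 is lowest in SNU-601, and OCLN lies at or near the floor throughout.

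CLDN3, a barrier-forming claudin, had the opposite extremes. It was brightest in SNU-216, at 2038 and 2173 in CD133+ cells and 3643 and 3742 in CD133- cells, and dimmest in SNU-601, at 291 and 330.3 in CD133+ cells and 183 and 228 in CD133- cells. KATO-III lay between, at 752 and 895 in CD133+ cells and 1636 and 1687 in CD133- cells. SNU-216 exceeded SNU-601 by 11.1-fold (log2 difference 3.47, SE 0.0826, limma adjusted p = 5.39e-10) and KATO-III exceeded SNU-601 by 4.64-fold (limma adjusted p = 2.09e-08). Every pair of neighbours in the order of the 6 population means of CLDN3 differed, with limma adjusted p from 6.70e-06 to 0.0353.

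The remaining members had flatter levels. CLDN7, which works at the basolateral membrane as well as in junctions, ranged from 9883 in SNU-216 CD133- cells to 15060 in SNU-601 CD133- cells, and no 2 neighbours in its order differed, although its lines did (limma adjusted p = 6.23e-05). CLDN1, a barrier-forming claudin, ranged from 7464 to 10139, and the line levels did not pass (limma adjusted p = 0.0613). CLDN12, which lacks the tail motif by which most claudins bind ZO proteins, ranged from 2023 to 3210.5 and was 1.35-fold lower in SNU-216 than in SNU-601 (limma adjusted p = 2.51e-06). TJP1, which encodes ZO-1, was 1.69-fold lower in KATO-III than in SNU-216 (limma adjusted p = 7.97e-06), while SNU-216 and SNU-601 differed by 0.14 on the log2 scale (limma adjusted p = 0.134).

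CLDN4 and OCLN were dim. CLDN4, the barrier-forming neighbour of CLDN3, gave 76.0 to 281 over the 12 arrays, and its 2 arrays of a population differed widely, as in SNU-216 CD133- cells at 134 and 281. The pooled replicate SD of its log2 intensity was 0.476, against 0.0415 for CLDN12. OCLN, which encodes occludin, passed the floor on 1 array each of SNU-216 CD133+ (33.2) and SNU-601 CD133+ (50.7) cells, and lay between 9.39 and 30.1 on the other 10 arrays. A pseudogene copy, OCLNP1, exists, and the row does not show which the probes read. The values of OCLN on those 10 arrays have no order.

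The comparison of CD133+ with CD133- cells within a line called 4 members in KATO-III, 3 in SNU-216 and 5 in SNU-601. Over all genes tested the shares called were 39.3%, 28.6% and 16.4%, so 4 of 9 and 3 of 9 stood near the background. In SNU-601 the calls of CLDN12 and TJP1 held whichever array of that line was left out. Those of CLDN1, CLDN2 and CLDN3 were each lost without some single arrays. Without CD133+ replicate 2, OCLN was called instead, on a lone array near the floor. In KATO-III, CLDN2 rose and CLDN3, CLDN12 and CLDN18 fell (18.7% of all genes rose and 20.6% fell). In SNU-216, CLDN1 and TJP1 rose and CLDN3 fell (14.6% and 14%). In SNU-601, CLDN2 and CLDN3 rose and CLDN1, CLDN12 and TJP1 fell (8.59% and 7.78%). The median log2 change of the members was -0.14 in KATO-III, 0 in SNU-216 and -0.09 in SNU-601, and that of all genes tested was 0 in each line. These tests rest on the spread within pairs of arrays, which may be technical, since the labels do not say whether a pair comes from separate sorts.

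CLDN3 moved in opposite directions. In KATO-III its CD133+ arrays lay below its CD133- arrays (2.02-fold, log2 change -1.02, SE 0.117, limma adjusted p = 0.00016), and so they did in SNU-216 (1.75-fold, -0.81, SE 0.117, adjusted p = 0.000965 by limma). In SNU-601 both CD133+ arrays lay above both CD133- arrays (1.52-fold, 0.60, SE 0.117, limma adjusted p = 0.00904). The SNU-601 call was lost without CD133+ replicate 2 (log2 change 0.51, limma adjusted p = 0.0640) and without CD133- replicate 1 (0.44, 0.0518). The change in KATO-III differed from that in SNU-601 by -1.62 (SE 0.165, limma adjusted p = 0.000161) and that in SNU-216 by -1.41 (SE 0.165, 0.000388). KATO-III and SNU-216 were not told apart, with a difference of -0.21 (95% interval -0.58 to 0.17).

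TJP1 differed just as plainly between lines. It was 5230 and 5490 in SNU-216 CD133+ cells and 2775 and 3083 in SNU-216 CD133- cells, a rise of 1.83-fold (log2 change 0.87, SE 0.0976, limma adjusted p = 0.000263). In SNU-601 it was 2626 and 3264 in CD133+ cells and 4380 and 4500 in CD133- cells, and so fell by 0.60 on the log2 scale (SE 0.0976, limma adjusted p = 0.00412). The 2 SNU-601 CD133+ arrays stood further apart than any other pair of TJP1 values, yet both lay under the CD133- arrays. In KATO-III, with 2137 and 2317 in CD133+ cells and 2393 and 2529 in CD133- cells, the change of -0.14 did not pass (limma adjusted p = 0.297).

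CLDN1 ran in the same directions as TJP1 in SNU-216 and SNU-601 and by less. It rose in SNU-216, from 7564 and 7631 in CD133- cells to 9807 and 10139 in CD133+ cells (log2 change 0.39, SE 0.0530, limma adjusted p = 0.000697). In SNU-601 it was 7464 and 7646 in CD133+ cells and 8445 and 8746 in CD133- cells (-0.19, SE 0.0530, 0.0446 by limma). That call was lost when any 1 of 8 arrays, 4 of SNU-216 and 4 of SNU-601, was left out, with limma adjusted p up to 0.186. In KATO-III the fractions overlapped, at 8397 and 8957 in CD133+ cells and 7900.0 and 8634 in CD133- cells.

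CLDN2 was higher in the CD133+ fraction of both lines that expressed it. The change was 0.93 in KATO-III (1.90-fold, SE 0.103, limma adjusted p = 0.000131) and 0.53 in SNU-601 (1.45-fold, SE 0.103, 0.00885 by limma), and the arrays of the fractions did not overlap in either line. The SNU-601 call was lost without CD133+ replicate 2 (0.50, limma adjusted p = 0.0563) and without CD133- replicate 2 (0.45, 0.0632). The 2 changes differed by 0.39 (95% interval 0.06 to 0.72), which did not pass after adjustment (limma adjusted p = 0.0743). CLDN18 went the other way in KATO-III, where it fell by 0.78 on the log2 scale (1.72-fold lower, SE 0.0620, limma adjusted p = 2.09e-05). In SNU-601 the CLDN18 arrays of CD133+ cells were also the lower ones, with a change of -0.18 (95% interval -0.32 to -0.04) that did not pass (limma adjusted p = 0.0897). These 2 changes of CLDN18 differed by -0.60 (SE 0.0876, limma adjusted p = 0.00102). In SNU-216 both genes were below the floor, and no change could be measured.

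**Figure D2:**
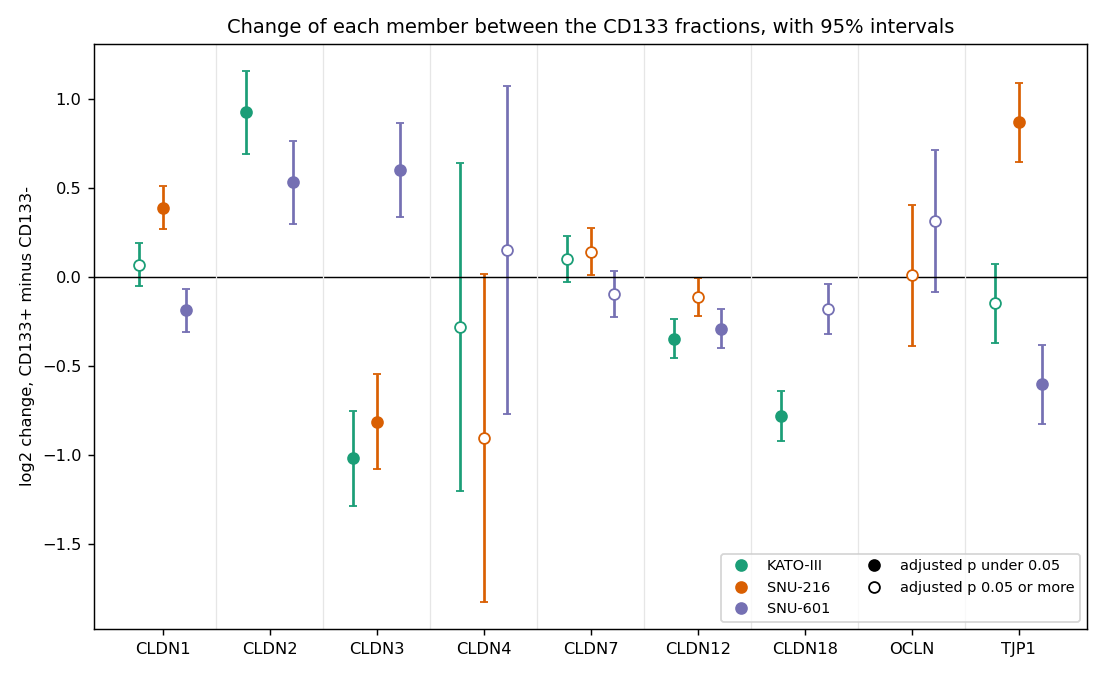
Log2 change, CD133+ minus CD133-, of each gene in the 3 lines, with 95% intervals from limma, where filled points have an adjusted p under 0.05; genes below the floor in both fractions of a line have no point. CLDN3 and TJP1 lie on both sides of 0, CLDN2 above it in KATO-III and SNU-601, and CLDN12 below it in all 3 lines.

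CLDN12 had 1 direction throughout. It was 2112 and 2222 in KATO-III CD133+ cells against 2706 and 2795 in CD133- cells, and 2524 and 2663 in SNU-601 CD133+ cells against 3121 and 3210.5 in CD133- cells. It fell in KATO-III by 0.34 on the log2 scale (SE 0.0476, limma adjusted p = 0.000468) and in SNU-601 by 0.29 (SE 0.0476, 0.00442 by limma). In SNU-216 the arrays read 2023 and 2064 in CD133+ cells and 2153 and 2256 in CD133- cells, a change of -0.11 that did not pass (limma adjusted p = 0.129). CLDN7 and CLDN4 changed in no line by this test. For CLDN7 the changes were 0.10, 0.15 and -0.09 in KATO-III, SNU-216 and SNU-601, and for CLDN4 the widest, in SNU-216, was -0.90 with a 95% interval from -1.83 to 0.02, so that a change of over 2-fold in CLDN4 could not be told from none.

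In 6 of 9 members the change differed between the lines (moderated F-test of the interaction, limma), where 44.4% of all genes tested did. They were CLDN1, CLDN2, CLDN3, CLDN12, CLDN18 and TJP1. For CLDN2 and CLDN18 the test takes SNU-216, where both lay below the floor, as a change of 0. Between KATO-III and SNU-601 alone CLDN18 differed (limma adjusted p = 0.00102) and CLDN2 did not pass (0.0743). The interaction of CLDN12 (limma adjusted p = 0.0414) did not outlast small changes: it was lost without 8 of the 12 single arrays, with adjusted p up to 0.123.

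With the lines taken as a block, 1 of 9 members passed over the 3 lines together, where 4.73% of all genes did (2.62% higher and 2.11% lower). This was CLDN12, which fell by 0.25 (SE 0.0545, limma adjusted p = 0.0321). The call was lost without 8 of the 12 single arrays, with adjusted p up to 0.0799, and when the 2 arrays of each population were averaged first (0.796). CLDN2 had the largest positive change, 0.49 (SE 0.139), at an adjusted p of 0.0659 by limma. CLDN3, with a change of -0.41 (SE 0.227), and TJP1, with 0.04 (SE 0.193), gave adjusted p of 0.281 and 0.908 by limma. The signal-to-noise ratio (SNR), the measure named in the study's methods, was computed as the difference of the means of the 6 CD133+ and 6 CD133- arrays over the sum of their SDs. Leaving out OCLN, which was measured on 2 arrays, it ran from -0.63 for CLDN12 to 0.36 for CLDN1. None of these 8 passed 1 or -1, as 0.558% and 0.402% of all genes did. Pooled over the 3 lines, the arrays of the fractions overlapped for each of the 8, and the share of all genes that overlap is not given here.

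The rest of the junction was read from 3 lists with 49 genes in all, of which 48 were in the table and 32 were tested: other claudins, other junction membrane proteins, and scaffold and polarity proteins. In KATO-III 4 of the 32 rose and 12 fell, in SNU-216 7 rose and 6 fell, and in SNU-601 5 rose and 3 fell. Of all genes tested, 18.7% rose and 20.6% fell in KATO-III, 14.6% and 14% in SNU-216, and 8.59% and 7.78% in SNU-601, and the counts of the single lists given next are to be read against these shares. The change differed between lines in 21 of the 32, where 44.4% of all genes did. Over the lines together 2 fell and 0 rose: TJP3, which encodes ZO-3, by 0.64 (SE 0.103, limma adjusted p = 0.0124), and PARD6B, a subunit of the polarity complex with atypical protein kinase C, by 0.79 (SE 0.171, 0.0309 by limma), where 2.11% of all genes fell. Both calls were lost with the populations as a random block (limma adjusted p = 0.191 for TJP3 and 0.346 for PARD6B, with the correlation estimated) and when the 2 arrays of a population were averaged (0.796 for each).

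Among 8 other claudins tested, KATO-III had 1 rise and 2 falls, SNU-216 2 rises and 1 fall, and SNU-601 2 rises and 0 falls, where 39.3%, 28.6% and 16.4% of all genes were called in either direction. CLDN15, a cation pore of the intestine, was 151 and 169 in KATO-III CD133+ cells against 496 and 547 in CD133- cells (log2 change -1.71, limma adjusted p = 2.50e-06), and 101 and 105 in SNU-216 CD133+ cells against 339 and 342 in CD133- cells (-1.73, limma adjusted p = 5.97e-06). In SNU-601, at 410.1 to 424 against 334 to 362, its change did not pass. CLDN11, a claudin of myelin and of the testis, was measured in SNU-216 only. There it stood at 1801 and 2345 in CD133+ cells against 304 and 409 in CD133- cells (5.82-fold, log2 change 2.54, limma adjusted p = 1.83e-05), the widest change of any claudin tested. CLDN23, also found in gut epithelium, fell in KATO-III (-0.30) and rose in SNU-216 (0.52) and SNU-601 (0.26). Other rises were those of CLDN20 in KATO-III (0.93, at intensities under 100) and CLDN6, a claudin of embryonic epithelia, in SNU-601 (at least 1.89-fold, at 47.5 and 80.3 against values below the floor).

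Of 7 other membrane proteins tested, KATO-III had 2 rises and 3 falls, SNU-216 3 rises and 1 fall, and SNU-601 1 rise and 0 falls, beside the same 39.3%, 28.6% and 16.4% of all genes. MARVELD2 (tricellulin), which closes the points where 3 cells meet, rose in KATO-III (0.86, limma adjusted p = 0.00451) and SNU-216 (0.66, limma adjusted p = 0.0225). LSR, which recruits tricellulin, rose in KATO-III (0.67) and fell in SNU-216 (-0.27, limma adjusted p = 0.0150), and its relative ILDR1 fell in KATO-III (-0.53). In SNU-216, where CLDN1 and TJP1 rose, the adhesion molecules F11R (1.19, limma adjusted p = 0.00288) and CXADR (0.98, limma adjusted p = 3.61e-05) also rose. F11R was dim, at 53.9 to 176 over the 12 arrays. ESAM, another adhesion molecule, rose in SNU-601 (0.69) and fell in KATO-III (-0.25, limma adjusted p = 0.0285).

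Of 17 scaffold and polarity genes tested, KATO-III had 1 rise and 7 falls, SNU-216 2 rises and 4 falls, and SNU-601 2 rises and 3 falls, beside 39.3%, 28.6% and 16.4% of all genes called in those lines. The widest fall was that of CGN, which encodes cingulin, a link from ZO proteins to myosin. In KATO-III it was 990 and 1013 in CD133+ cells against 2720.3 and 2868 in CD133- cells (2.79-fold lower, log2 change -1.48, limma adjusted p = 7.46e-07). PARD6B also fell in KATO-III (-1.19), where PRKCI, its kinase partner, rose (0.99). TJP3 fell in KATO-III (-0.77) and SNU-216 (-0.85). In SNU-216, PARD6G rose (0.74) and PARD6A fell (-0.53), and in SNU-601 PARD6A rose (0.67) and AMOT fell (-0.37). AMOT also fell in KATO-III (-0.33) and rose in SNU-216 (0.39).

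**Figure D3:**
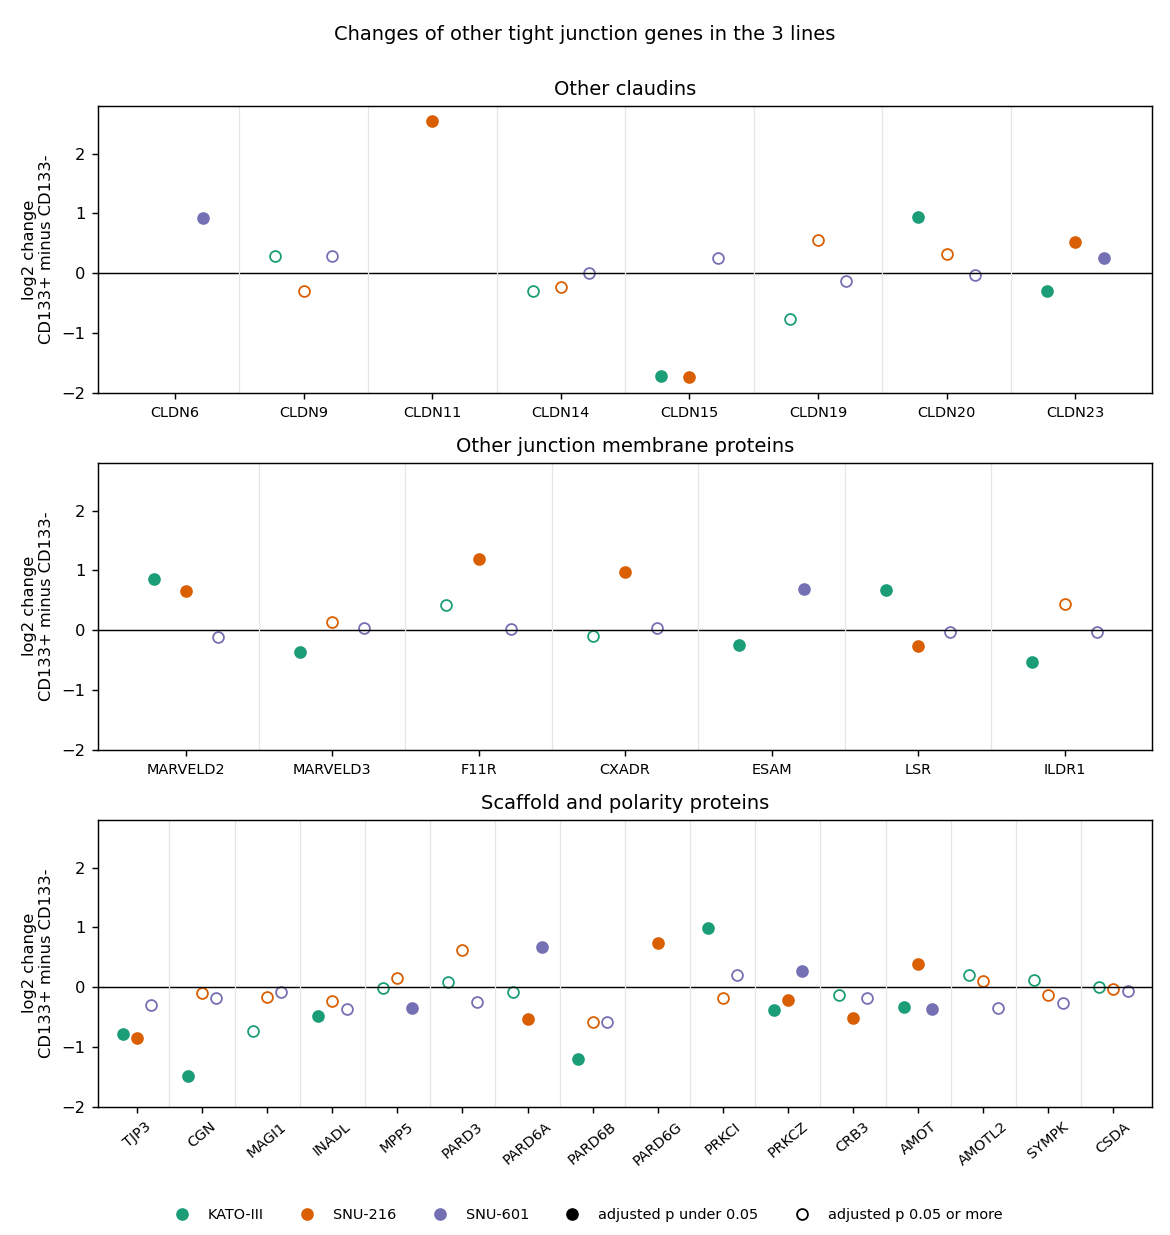
Log2 change, CD133+ minus CD133-, of 31 further junction genes in the 3 lines, by list, where filled points have a limma adjusted p under 0.05; genes below the floor in both fractions of a line have no point. CLDN11 in SNU-216 is the highest point and CLDN15 in KATO-III and SNU-216 the lowest.

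Of 5 surface proteins that bind claudins (such as EPCAM), cleave these partners (ST14) or inhibit that cleavage (SPINT1 and SPINT2), SPINT1 rose in KATO-III (0.38), 0 changed in SNU-216, and ST14 rose in SNU-601 (0.29). Of all genes tested, 39.3% were called in KATO-III, 28.6% in SNU-216 and 16.4% in SNU-601. EPCAM, the partner of CLDN7, passed in no line.

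Among 14 transcription factors known to act on claudin genes, 10 were tested. The level of 9 differed between the lines, where 72.3% of all genes tested did. CDX2, SNAI2 and TWIST1, picked here after their values were seen, set SNU-216 apart from the other lines, as CLDN2 and CLDN18 did. Others did not show such a split: ELF3, OVOL2 and GRHL2 were above the floor on all 12 arrays. CDX2, an intestinal homeobox factor, was 1223 to 1824 in KATO-III and 1992 to 3168 in SNU-601, and 8.65 to 41.8 in SNU-216 (level between lines, limma adjusted p = 5.07e-12). SNAI2, a repressor of epithelial genes, was 2749.7 to 3128 in SNU-216 and below the floor in the other lines, and TWIST1, another such repressor, was 221 to 676 in SNU-216. The 3 lines give only 3 independent points for such an order, and no relation between these genes was tested.

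**Figure D4:**
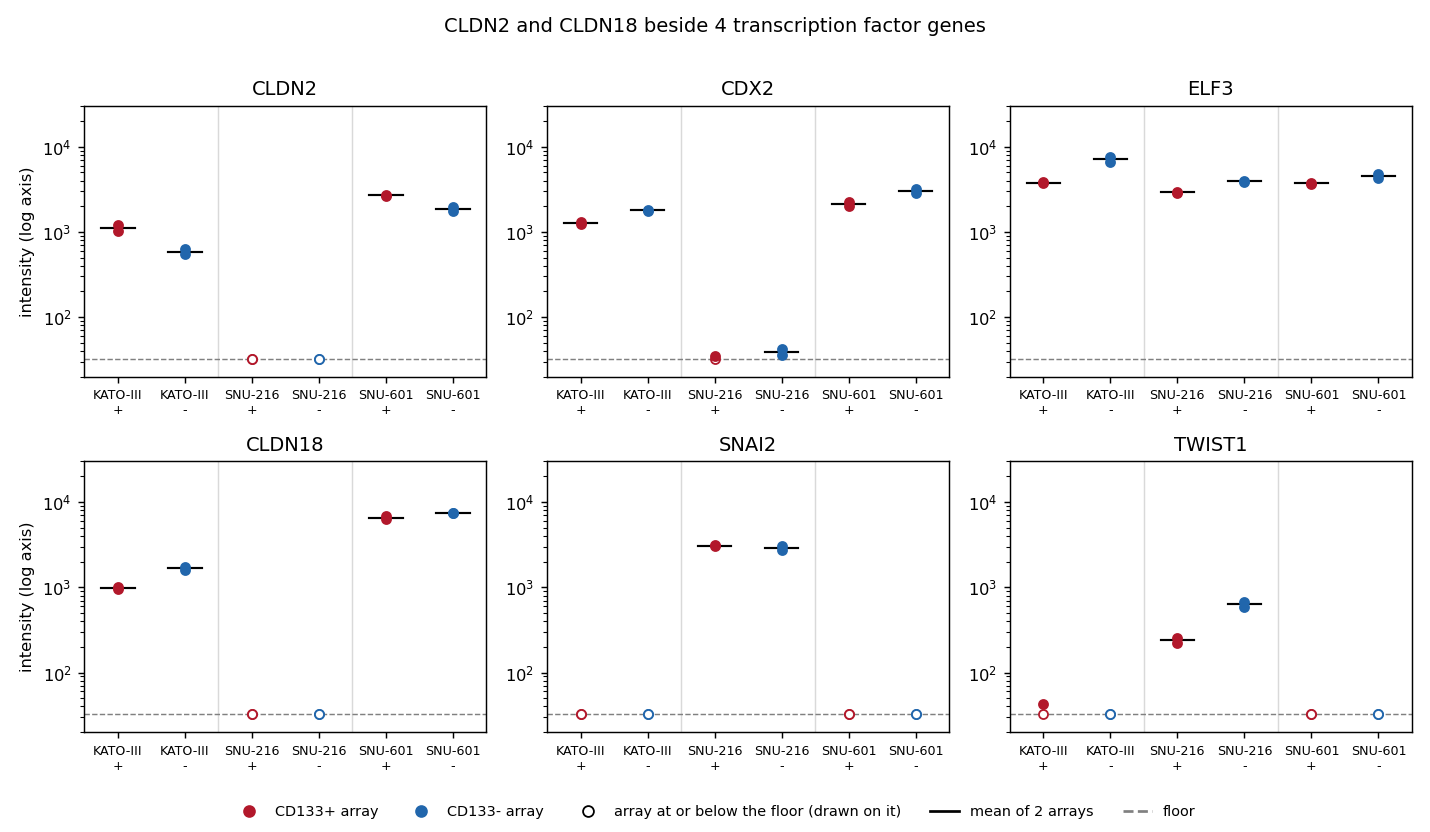
Intensity (log axis) of CLDN2 and CLDN18 beside the transcription factor genes CDX2, ELF3, SNAI2 and TWIST1 on the 12 arrays, where points are arrays, bars are means of 2 arrays and the dashed line is the floor of 32.7. CLDN2, CLDN18 and CDX2 are bright in KATO-III and SNU-601, ELF3 in all 3 lines, and SNAI2 is above the floor in SNU-216 only.

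Changes of these factors between the fractions are given next, and their relation to the claudins was not tested. CDX2 fell in KATO-III (-0.50, limma adjusted p = 0.0037) and in SNU-601 (-0.50, limma adjusted p = 0.0106). In those CD133+ fractions CLDN2 was higher and CLDN18 lower, although the change of CLDN18 in SNU-601 (-0.18) did not pass. TWIST1 fell in SNU-216 (-1.39, limma adjusted p = 0.000274). ELF3, an epithelial ETS factor, fell in all 3 lines (-0.91, -0.42 and -0.28 in KATO-III, SNU-216 and SNU-601). GRHL2, a grainyhead-like factor of epithelial junction genes, rose in SNU-216 (0.38) and fell in SNU-601 (-0.42), OVOL2 fell in SNU-216 (-0.77), and in KATO-III OVOL1 fell (-0.56) and HNF4A rose (0.55). Counted within lines, 1 factor of the 10 tested rose and 5 fell in KATO-III, 1 rose and 3 fell in SNU-216, and 0 rose and 3 fell in SNU-601. Of all genes tested, 18.7% rose and 20.6% fell in KATO-III, 14.6% and 14% in SNU-216, and 8.59% and 7.78% in SNU-601. Over the lines together ELF3 (-0.54, limma adjusted p = 0.0157), CDX2 (-0.40, limma adjusted p = 0.0321) and OVOL2 (-0.40, limma adjusted p = 0.0438) fell, 3 of the 10 tested, where 2.11% of all genes fell. These 3 calls were lost with the populations as a random block (limma adjusted p = 0.177, 0.288 and 0.246 with the correlation estimated) and when the 2 arrays of a population were averaged (0.796 for each).

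The genes whose log2 intensity over the 12 arrays was most like that of the 3 widest-ranging members were found among 11674 genes above the floor on all arrays. For CLDN18 they were CRADD (r = 0.996), RAP1GAP (r = 0.996) and SLC29A3 (r = 0.996). For CLDN2 they were HS.57079 (r = 0.997), C21ORF63 (r = 0.996) and C10ORF32 (r = 0.994), and for CLDN3 they were HS.559714 (r = 0.993), HCFC1 (r = 0.988) and BMS1 (r = 0.985). These arrays share 3 lines and come in pairs, so such values describe the order of the lines above all.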

How the data were processed

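RNA of 6 sorted populations was read on 12 Illumina HT-12 v3 arrays. The authors deposited intensity values that were quantile-normalized, per the study's methods, on a linear scale with a row per gene symbol. BeadStudio is named in the submitters' processing notes, and its version, the background method and the way probes were combined are not given in the sources used here. Of 34688 rows, 93 were empty, and 32.1% of all values were at or below 0.

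Groups came from the array titles. Lower intensities were raised to a floor of 32.7 (the absolute value at percentile 1 of the whole table) before log2, on which scale all fits were planned. Genes above it on at least 2 arrays were tested (20147, 58.2%), which all 9 members were. Tests used limma 3.58.1 in R 4.3.3 (lmFit, eBayes with trend) with Benjamini-Hochberg adjustment over all genes tested and a threshold of 0.05: a mean for each of 6 populations (6 residual degrees of freedom) for changes within lines, levels and interactions, and the line as a block (8) for the change over the lines. A fold against a line below the floor is a lower bound. The fits were tested on simulated data. Motifs were searched in Python 3.11.15, with RefSeq windows matched by symbol for all 9 members.

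The members and lists were chosen with earlier results of these data known. Named are the 9 members, PROM1, the marker genes, up to 3 called genes of each list and line with the largest change, and the 3 genes most like each of the 3 widest-ranging members. CDX2, SNAI2, TWIST1, CDH1, EPCAM, GRHL2, OVOL2, ELF3, LSR, ESAM, AMOT, TJP3 and PARD6B are also named where this rule did not give them, after their values were seen. Alternatives covered the floor, an offset, the normalization, the filter, the trend, a replicate block, leaving out each array, and the treatment of the 2 arrays. The contrast of changes between pairs of lines was added after the data were seen. Some genes of the lists are counted and not reported by name here.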

Additional observations from a re-analysis of the deposited data

Results flagged for a closer look

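In 6 members the change between the fractions differed between the lines by the interaction test (limma, adjusted p in each case). The values were 0.000142 for TJP1, 0.000158 for CLDN3, 0.000327 for CLDN18, 0.000891 for CLDN1, 0.0025 for CLDN2 and 0.0414 for CLDN12. CLDN3, TJP1 and CLDN1 had called changes of opposite sign in SNU-601 and SNU-216, as CLDN3 had in SNU-601 and KATO-III. For CLDN2 and CLDN18 the test includes SNU-216, where both lay below the floor and no change could be measured. Between KATO-III and SNU-601 alone, a contrast chosen after the values were seen, the difference passed for CLDN18 (limma adjusted p = 0.00102) and did not for CLDN2 (limma adjusted p = 0.0743).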

How the results depend on the processing

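Of 648 values for single members with 1 array left out, 613 kept their side of the threshold, and 0 calls reversed. Of 482 under the other alternatives, 460 did, and 0 calls reversed. The F-tests among these values have no direction. Changes that were not called could change sign, as that of CLDN4 in KATO-III did (-0.60 to 0.04 with 1 array left out). The count of members higher fell to 0 in KATO-III and 1 in SNU-601 when genes had to be above the floor on all 12 arrays, which by construction drops CLDN2 and CLDN18. The junction genes higher in SNU-601 were then 3. With an offset of 100, CLDN2 passed over the lines (1 member higher, 0.45, limma adjusted p = 0.0481). Junction genes lower in SNU-601 numbered 5 at a floor of 100 and 5 with the offset, against 3. Those lower over the lines numbered 4 at a floor of 100, 1 without a filter, 0 with population means and 0 with populations as a random block, against 2.

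Members lower over the lines numbered 0 without the trend (CLDN12, limma adjusted p = 0.0599), with the replicate block (0.0533), with population means (0.796) and with the random block (0.247). Replicate numbers did not pair the arrays (15 pairs of populations, r of deviations -0.0116 to 0.0276). Adding them as a block also ended the call of CLDN1 in SNU-601 (limma adjusted p = 0.0623) and gave one to the CLDN7 interaction (0.0456). The CLDN1 call was lost too at a floor of 16 (0.0547), after median centring (0.0884), without a filter (0.0784) and without the trend (0.117), as it was without any 1 of the 8 arrays of SNU-216 and SNU-601. The genes called over the lines, 527 higher and 426 lower, became 232 and 163 without a filter, 275 and 196 with the block, 1 and 0 with the random block (1109 and 1188 at an unadjusted p under 0.05 by limma) and 0 and 0 with population means (470 and 522, by limma).

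With 1 array left out, counts ranged as follows. Members higher in SNU-601 numbered 1 to 2 and members lower over the lines 0 to 1. Junction genes higher numbered 2 to 5 in KATO-III and 2 to 5 in SNU-601, those lower in SNU-601 2 to 5, and those lower over the lines 1 to 3. Without SNU-601 CD133+ replicate 2, OCLN passed in SNU-601 (0.63, limma adjusted p = 0.00922) on a lone array. The level of CLDN1 between lines passed at a floor of 100 (0.0488), after a second quantile normalization (0.0165) and after median centring (0.0112). Causes of these shifts were not tested. With 2 arrays a population, precision is limited by their number, and for CLDN4 and OCLN by signal near background.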
